A study of Mus musculus with 3 samples.

Results

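Amino acid transporters carry amino acids and closely related small molecules across the cell membrane, and the mouse genes described here were chosen by a rule on gene names. A gene belonged to the set when the gene name that the array file gives for a probe began with Slc1a, Slc3a, Slc6a, Slc7a, Slc36a, Slc38a or Slc43a followed by a digit. The rule used no measured value, but the members and the related lists were chosen with earlier results of these data known. It found 62 names with 108 probes, of 19710 named genes and 41174 gene probes in all. Of the 62, 61 are transporter genes or transporter heavy chains, and Slc7a6os is a neighbouring gene on the opposite strand from Slc7a6 that encodes no carrier. By family there were 7 SLC1 genes, 2 SLC3 genes, 20 SLC6 genes, 16 SLC7 names including Slc7a6os, 4 SLC36 genes, 10 SLC38 genes and 3 SLC43 genes.

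The study compared gene expression in 3 whole tissues of C57BL/6 mice: adult liver at 12 weeks, fetal liver at gestation day 13.5, and bone marrow. The labels do not settle whether the bone marrow donors were also 12 weeks old, and neither sex nor the number of animals is given in the sources used here. Total RNA of each tissue was amplified, labelled with Cy3 and read on 1 Agilent array, so each group is 1 sample and no comparison has a replicate. No p-value, SD or SE between samples is therefore given, and every difference describes these 3 RNA samples.

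The families differ in what drives them and what they carry. SLC1 carriers use the sodium gradient to take up glutamate or exchange small neutral amino acids, SLC38 carriers use it to move glutamine and other small neutral amino acids, and SLC36 carriers use protons. SLC6 carriers need sodium and chloride and include the carriers of glycine, proline, taurine, betaine, creatine and the monoamine neurotransmitters. SLC7 holds the cationic amino acid carriers and the light chains of the heteromeric exchangers, which reach the membrane only when joined to an SLC3 heavy chain. SLC43 carriers move large neutral amino acids without sodium. In the adult liver these proteins serve gluconeogenesis, urea synthesis and glutamine exchange, and in dividing blood precursors they supply protein and heme synthesis.

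Signals are given as the scanner software's processed intensity with that software's own error of the spot. The 75th percentile of the gene spots was 296, 386 and 894 in adult liver, fetal liver and bone marrow. Each signal was divided by that percentile before any fold was formed. The mean signal of the spike-in controls ran the other way, at 9491, 8773 and 4063, and scaling to it raises bone marrow against both livers. A fold of at least 4 was counted as a difference. Where a probe was too dim to stand well above background in 1 of the compared tissues, the fold is a lower bound and is written "at least". Where it was dim in both, no fold was formed. The error of a measured log2 difference from the spots was 0.20 to 0.43 with a median of 0.21 between fetal and adult liver, the largest being that of Slc6a11. Probes printed 10 times on each array had a median SD of 0.07, 0.06 and 0.05 on the log2 scale in adult liver, fetal liver and bone marrow. Neither error holds any variation between animals.

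Of the 62 names, 36, 44 and 41 were well above background in adult liver, fetal liver and bone marrow, beside 65.4%, 70.4% and 70.7% of all named genes. In all 3 tissues 30 of the 62 were well above background, beside 11687 of all 19710 named genes. On no array were 13 of the 62, beside 4381 of the 19710, a share close to that of all genes. Among the 13 were Slc1a7, Slc38a8, Slc6a15, Slc6a18, Slc6a19, Slc6a2, Slc6a20b, Slc6a5, Slc6a7, Slc7a12, Slc7a13 and Slc7a14. These include carriers known from brain, kidney and gut, such as the glycine carrier Slc6a5 and the neutral amino acid carrier Slc6a19. Since the arrays hold no count, this says only that the probes were not well above background.

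**Figure D1:**
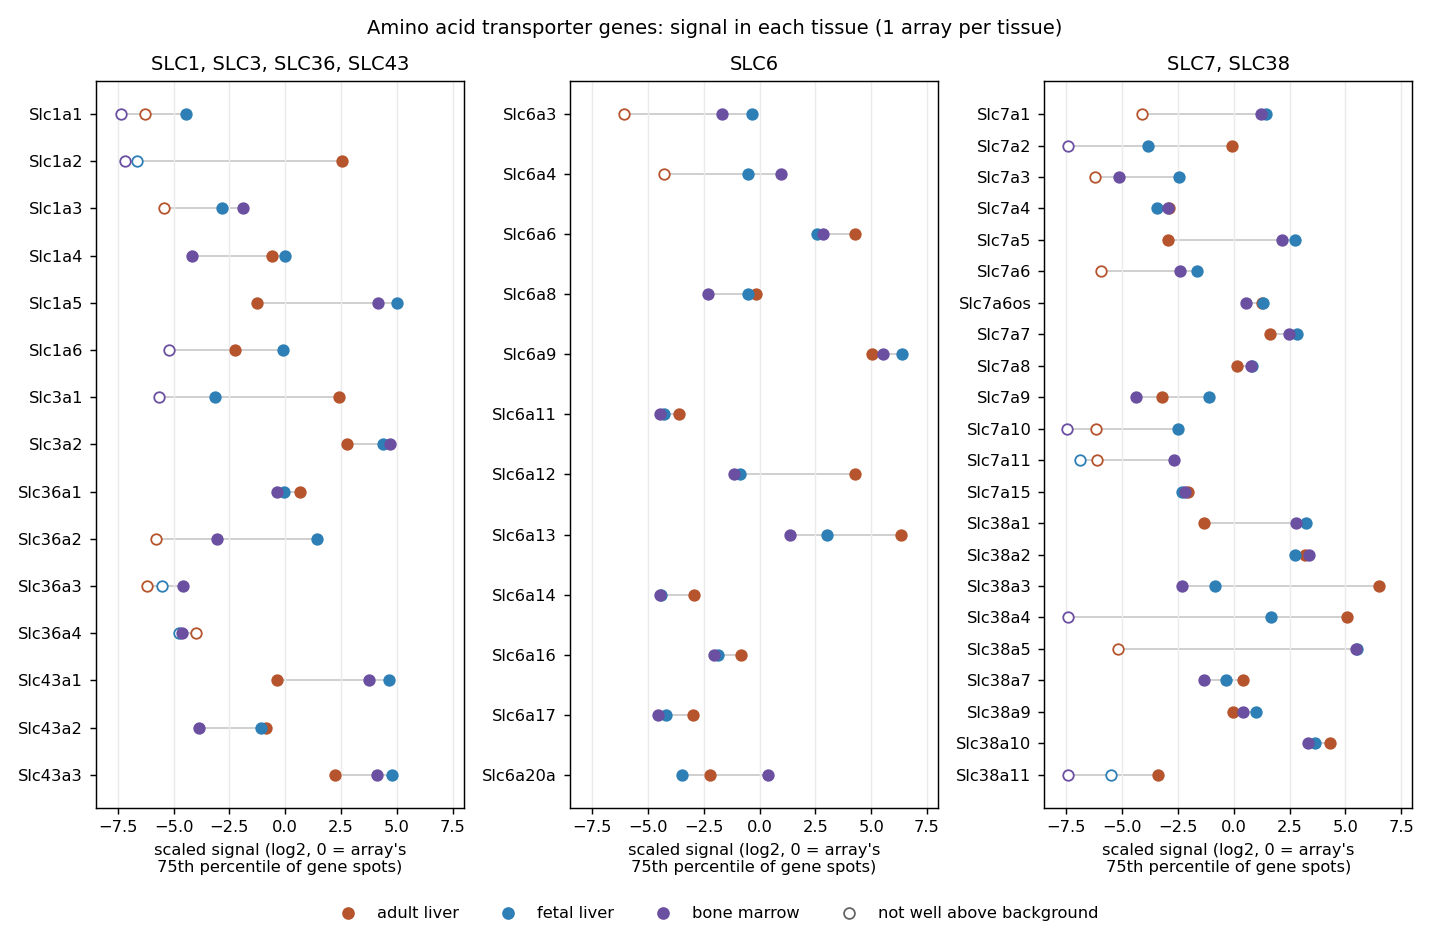
Scaled signal (log2, 0 at the array's 75th percentile) of each of the 49 transporter gene names well above background on at least 1 array, with 1 point for each tissue and open points where the probe was not well above background. Compare points along a line, not between lines, since each gene has its own probe. On their own lines, the adult liver points of Slc38a3, Slc38a4 and Slc1a2 lie right of both other tissues. Those of Slc38a5, Slc1a5 and Slc7a5 lie left of both.

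The first comparison set the blood-forming liver against the mature organ. More transporter genes passed 4-fold towards fetal liver than towards adult liver. Of 45 that could be compared, 13 (28.9%) were at least 4-fold higher in fetal liver, where 12.1% of all genes compared were. In the other direction 7 (15.6%) were higher in adult liver, where 14.1% of all genes were, a share close to that of all genes. A further 21 were measured within 4-fold, and 4 had a lower bound under 4. The median log2 difference was 0.02, beside 0.06 over all genes. Of the 13 higher in fetal liver, 7 were measured in both tissues and 6 were lower bounds because the adult liver signal was dim. The genes nearest to the threshold were the cystine carrier light chain Slc7a9 (4.30-fold, inside) and the taurine carrier Slc6a6 (3.29-fold, outside).

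**Figure D2:**
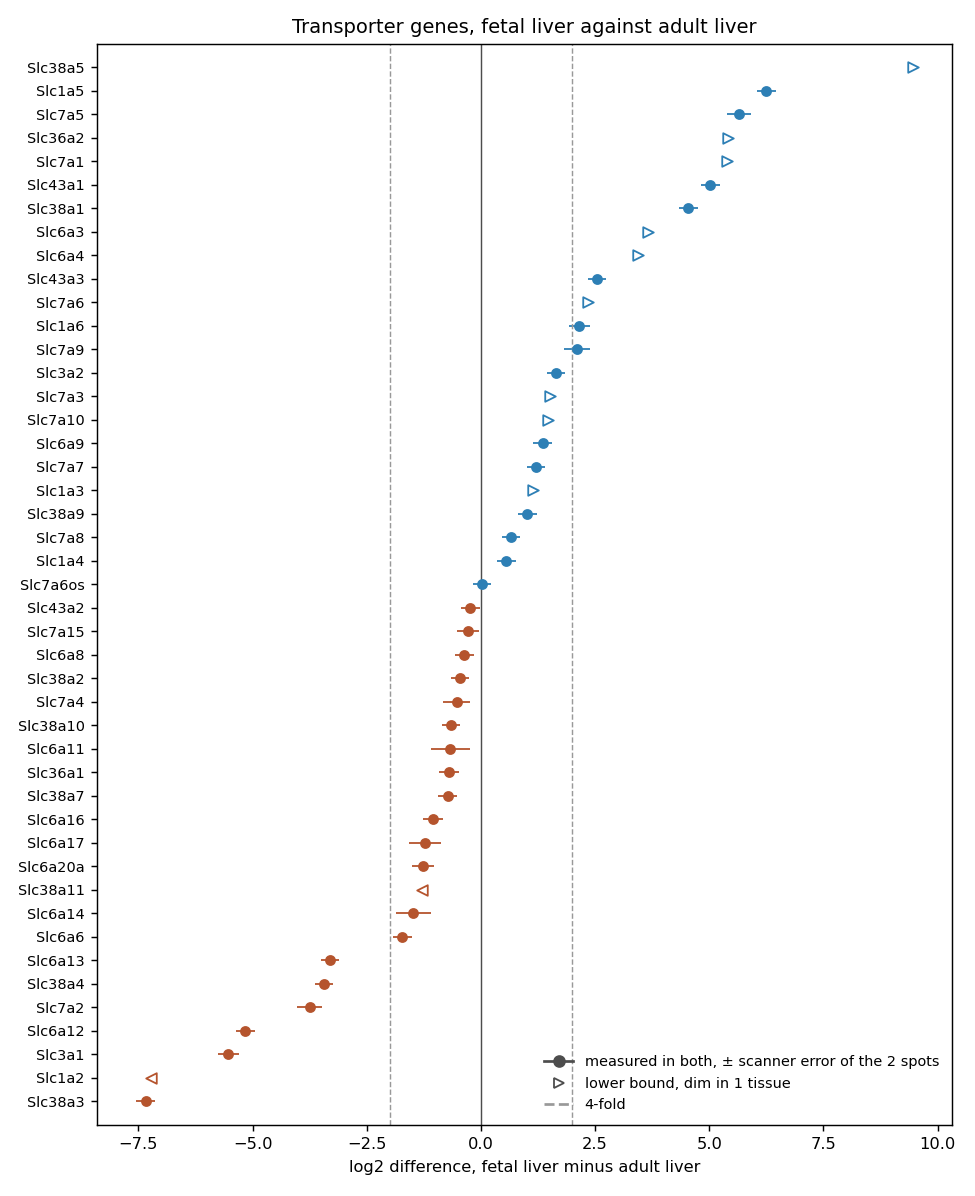
Log2 difference between fetal and adult liver for the 45 transporter gene names with a fold. Points carry the scanner error of the 2 spots, triangles are lower bounds, and dashed lines mark 4-fold. The 13 genes right of the right line run from Slc7a9 at 2.10 to Slc38a5 at 9.47, and the 7 left of the left line reach down to Slc38a3 at -7.34.

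In adult liver, 7 genes stood at least 4-fold above both other tissues, and they spanned 5 of the 7 families. They were 16.3% of the 43 genes compared both ways, beside 11.8% of all genes. All 7 kept both differences at 4-fold or more under every alternative processing that gave them a value. Keeping spots flagged as outliers, or dropping genes dim on an array, could not change a fold. The authors' normalized column, made from the spot error, could hardly change a fold between bright signals. The system N glutamine carrier Slc38a3 (probe on chromosome 9, 107553825 to 107553884, mm9) gave 26600 ± 2660 in adult liver, while fetal liver gave 213 ± 21.6 and bone marrow 177 ± 18.5. It stood high in adult liver and low in both other tissues, 163-fold above fetal liver and 453-fold above bone marrow. Slc38a4, a system A carrier of small neutral amino acids that is imprinted in mice (chromosome 15, 96825482 to 96825541), gave 10000 ± 1000, 1210 ± 121 and 5.17 ± 5.16 in the same order. It was lower in fetal liver than in adult liver and lower again in bone marrow, where it was not well above background. Adult liver was 10.8-fold above fetal liver and at least 1273-fold above bone marrow, and fetal liver at least 118-fold above bone marrow. A second Slc38a4 probe gave 16.9-fold, at least 54.1-fold and at least 3.20-fold for these 3 comparisons.

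Slc1a2, the high-affinity glutamate carrier of astrocytes and of hepatocytes around the central vein (chromosome 2, 102617706 to 102617765), gave 1720 ± 172 in adult liver, against 3.93 ± 3.93 in fetal liver and 6.09 ± 6.08 in bone marrow. The adult liver was the only tissue in which this probe was well above background, at least 149-fold above fetal liver and at least 219-fold above bone marrow. Of its 3 other probes, 2 stood the same way, at least 26.9-fold and at least 25.5-fold above fetal liver. The remaining probe, which the array file places at 102584501 to 102584560, was dim in both livers and gave 94.7 in bone marrow.

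Slc6a12 and Slc6a13, which lie next to each other on chromosome 6, carry betaine and GABA, and GABA and taurine. Slc6a12 gave signals of 5810 ± 581, 212 ± 21.6 and 401 ± 40.5 in adult liver, fetal liver and bone marrow. Adult liver was 35.7-fold above fetal liver and 43.7-fold above bone marrow, while fetal liver and bone marrow lay within 1.23-fold. Slc6a13 gave 24200 ± 2420, 3170 ± 317 and 2320 ± 232, which places adult liver 9.94-fold and 31.5-fold above the other tissues. Its second probe gave 10.1-fold and 30.7-fold. Both neighbours were thus high in adult liver, with Slc6a13 the less distant from fetal liver.

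The cationic amino acid carrier Slc7a2, the form known from liver, gave 281 ± 28.5 in adult liver, against 27.2 ± 4.30 in fetal liver and 5.22 ± 5.20 in bone marrow. Adult liver was 13.4-fold above fetal liver and at least 35.8-fold above bone marrow. The heavy chain Slc3a1, whose main partner is Slc7a9 and whose loss causes cystinuria, gave 1560 ± 156, 44.1 ± 5.48 and 17.9 ± 5.36. It was 46.1-fold higher in adult than in fetal liver and at least 199-fold higher than in bone marrow, where it was not well above background.

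All 10 hepatocyte markers, among them Alb, Ttr and Cyp2e1, were also at least 4-fold above fetal liver in adult liver. Of all genes compared, 14.1% were. Their summed scaled signal was 2317, 249 and 4.53 in adult liver, fetal liver and bone marrow, with 10, 8 and 4 of 10 well above background. The part of hepatocyte content in the differences of these 7 transporter genes was not tested. In whole-tissue RNA, fewer cells of a type and less RNA per cell cannot be told apart.

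In contrast, 8 genes (18.6% of 43, beside 7.95% of all genes) stood at least 4-fold below both other tissues in adult liver, and for all 8 the fetal liver and bone marrow signals lay within 4-fold of each other. With spike-in scaling, Slc38a5, Slc6a4 and Slc7a1 were over 4-fold higher in bone marrow than in fetal liver, with log2 differences of -2.29, -3.83 and -2.12. The system N carrier Slc38a5 (chromosome X, 7857226 to 7857285) gave 8.22 ± 4.96 in adult liver, while fetal liver gave 17500 ± 1750 and bone marrow 39700 ± 3970. It was not well above background in adult liver and bright in both other tissues, at least 711-fold and at least 696-fold higher. After scaling, fetal liver and bone marrow differed by 1.02-fold. Slc38a5 and Slc38a3, both of system N, thus stood on opposite sides of the comparison between fetal and adult liver.

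The neutral amino acid exchanger Slc1a5, a glutamine carrier of dividing cells (chromosome 7, 17383359 to 17383418), gave 124 ± 13.0, 12300 ± 1230 and 16100 ± 1610. It was low in adult liver, 76.2-fold below fetal liver and 43-fold below bone marrow. The system A carrier Slc38a1 gave 118 ± 12.7, 3570 ± 357 and 6130 ± 613, with fetal liver 23.2-fold and bone marrow 17.2-fold above adult liver. Of its 5 probes, 4 stood at least 4-fold higher in fetal liver and the fifth at least 3.47-fold.

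Carriers of large neutral and cationic amino acids were among the same 8. The light chain Slc7a5, which brings in leucine and other large neutral amino acids (chromosome 8, 124405142 to 124405201), gave signals of 38.7 ± 5.84, 2540 ± 254 and 4030 ± 403 in adult liver, fetal liver and bone marrow. Fetal liver was 50.4-fold and bone marrow 34.5-fold above adult liver. Slc43a1, a sodium-independent carrier of large neutral amino acids (chromosome 2, 84703269 to 84703328), gave 232 ± 23.6, 9770 ± 977 and 11900 ± 1190, or 32.3-fold and 17-fold. The arginine and lysine carrier Slc7a1 gave 17 ± 4.86, not well above background, against 1030 ± 103 and 2080 ± 208, or at least 41.9-fold and at least 36.5-fold. The choice of probe matters for Slc7a1, since its second probe gave 35.4 in fetal liver and 61.1 in bone marrow, at least 1.44-fold and at least 1.07-fold above adult liver.

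The last 2 of the 8 are monoamine carriers. The serotonin carrier Slc6a4, known from platelets as well as neurons, gave 15 ± 5.18 in adult liver, against 266 ± 26.9 in fetal liver and 1750 ± 175 in bone marrow. It was brightest in bone marrow, at least 30.7-fold above adult liver and 2.84-fold above fetal liver, and fetal liver was at least 10.8-fold above adult liver. The dopamine carrier Slc6a3 gave 4.39 ± 4.37, 310 ± 31.2 and 281 ± 28.6, with fetal liver at least 12.6-fold and bone marrow at least 4.93-fold above adult liver. With normexp background correction the difference between fetal and adult liver was 1.65 (log2) for Slc6a4 and that between adult liver and bone marrow was -0.84 for Slc6a3, both under 4-fold.

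Markers of several blood cell types moved with these 8 genes. Of 10 erythroid markers, 9 were at least 4-fold higher in the fetal than in the adult liver and none was 4-fold apart between fetal liver and bone marrow, with a summed scaled signal of 54.3, 785 and 555 in adult liver, fetal liver and bone marrow. Of all genes compared, 12.1% were higher in the fetal than in the adult liver, and 17.6% were 4-fold apart between fetal liver and bone marrow. In adult liver 6 of the 10 were well above background, Alas2 the brightest. All 6 megakaryocyte markers were at least 4-fold higher in the fetal than in the adult liver (sums 1.21, 142 and 153), as were all 6 markers of dividing cells (sums 0.737, 275 and 233). Neutrophil markers summed to 2.91, 147 and 1903, and markers of the B lineage to 2.93, 2.35 and 149. No marker was listed at 0. The part of these cell types in the transporter differences was not tested.

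A further 5 transporter genes were at least 4-fold higher in the fetal than in the adult liver. Slc43a3, grouped with SLC43 by sequence and known to carry purine nucleobases, gave 1380 ± 138 in adult liver, while fetal liver gave 10500 ± 1050 and bone marrow 15500 ± 1550. It was 5.84-fold higher in the fetal than in the adult liver, and bone marrow was 3.72-fold above adult liver. Slc7a6, a light chain that exchanges cationic for neutral amino acids, gave 4.74 ± 4.72, 125 ± 13.0 and 166 ± 17.6. It was at least 5.08-fold higher in the fetal than in the adult liver, and of its 2 other probes 1 gave at least 4.59-fold and 1 was dim everywhere. With normexp background correction its log2 difference was 0.98. The other 3 were Slc36a2, Slc7a9 and Slc1a6, which stood highest in fetal liver and are described with the comparison to bone marrow.

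Genes of a common pattern were also set beside their promoters. The RefSeq promoter table (build GRCm38.p6) was matched by symbol and held 44 of the 62 names. Among them were Slc38a5, Slc43a1, Slc6a3, Slc6a4 and Slc7a1 of the 8 genes low in adult liver, and Slc1a2, Slc38a4, Slc3a1, Slc6a12 and Slc6a13 of the 7 high there. The 250 bases before each start were searched on both strands for the E-box CACGTG, the GATA motif AGATAA, the amino acid response element TGATGNAA and the HNF4 motif CAAAGTCCA. The E-box was found in 3 of the 5 promoters of genes low in adult liver, in 0 of the 5 of genes high there, in 9 of 44 transporter promoters and in 6.04% of all 27025 promoters of that length. In the order given, the other motifs were in 10.2%, 3.53% and 0.377% of all promoters. Among these 10 promoters they were found only in that of Slc3a1, which held the GATA and the HNF4 motif. The 4 promoters with a match are shown 5′ to 3′ on the strand of the gene, with the matched letters in capitals, which do not overlap in the 1 sequence with 2 matches. They lie at chrX:8271131-8271380 (plus strand) for Slc38a5, chr2:84840073-84840322 (plus) for Slc43a1, chr13:73536497-73536746 (plus) for Slc6a3 and chr17:85028097-85028346 (plus) for Slc3a1.
Slc38a5: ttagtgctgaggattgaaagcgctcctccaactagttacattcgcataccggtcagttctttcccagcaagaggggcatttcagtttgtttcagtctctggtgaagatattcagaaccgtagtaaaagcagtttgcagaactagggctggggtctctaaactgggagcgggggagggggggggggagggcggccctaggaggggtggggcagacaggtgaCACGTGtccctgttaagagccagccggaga
Slc43a1: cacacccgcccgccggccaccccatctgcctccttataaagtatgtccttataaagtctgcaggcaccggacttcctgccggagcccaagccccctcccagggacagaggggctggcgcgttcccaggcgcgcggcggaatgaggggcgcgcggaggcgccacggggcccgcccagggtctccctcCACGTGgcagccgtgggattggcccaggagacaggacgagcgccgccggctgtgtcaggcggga
Slc6a3: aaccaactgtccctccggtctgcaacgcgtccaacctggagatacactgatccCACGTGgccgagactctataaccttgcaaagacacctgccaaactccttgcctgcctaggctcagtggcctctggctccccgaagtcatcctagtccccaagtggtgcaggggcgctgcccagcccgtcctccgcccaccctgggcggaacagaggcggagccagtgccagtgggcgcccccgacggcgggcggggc
Slc3a1: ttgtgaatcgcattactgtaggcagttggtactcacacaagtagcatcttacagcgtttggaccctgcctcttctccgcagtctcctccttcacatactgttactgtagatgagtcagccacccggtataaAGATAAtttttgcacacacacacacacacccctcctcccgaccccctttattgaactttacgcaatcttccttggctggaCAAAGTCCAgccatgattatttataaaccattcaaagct
A match is a stretch of letters and was not tested as a binding site, and a promoter without one says nothing about the factor.

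The heteromeric exchangers were followed by their subunits. The heavy chain Slc3a2, the partner of Slc7a5, Slc7a6, Slc7a7, Slc7a8, Slc7a10 and Slc7a11 (chromosome 19, 8782189 to 8782248), gave signals of 2000 ± 200, 8120 ± 812 and 22900 ± 2290 in adult liver, fetal liver and bone marrow. It was present in all 3 tissues and, in the main processing, within 4-fold in each comparison. Fetal liver was 3.12-fold and bone marrow 3.80-fold above adult liver, and bone marrow 1.22-fold above fetal liver. A second Slc3a2 probe, dim in adult liver, gave at least 1.89-fold, at least 4.21-fold and 2.23-fold in the same directions. With normexp background correction, quantile normalization or spike-in scaling, Slc3a2 passed 4-fold towards bone marrow over adult liver. With spike-in scaling it also passed 4-fold towards fetal over adult liver, and towards bone marrow over fetal liver (log2 difference -2.61). The light chains of Slc3a2 differed in how far apart the tissues stood. Slc7a5 and Slc7a6 were low in adult liver, as given above. Slc7a7, the light chain that exports arginine and lysine, gave 921 ± 92.2, 2760 ± 276 and 4960 ± 496, all within 2.30-fold after scaling. Slc7a8, a light chain for neutral amino acids, gave 326 ± 32.9, 671 ± 67.1 and 1510 ± 151, all within 1.58-fold. With the percentile scaling both light chains were thus near level across the tissues while Slc7a5, with the same heavy chain, was not. This depends on the scaling. With spike-in scaling, bone marrow stood 4-fold or more above adult liver for 9 of 12 SLC7 names compared, beside 66.1% of all genes.

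The small neutral amino acid light chain Slc7a10 gave 4.15 ± 4.13 in adult liver, against 68.5 ± 7.59 in fetal liver and 5.09 ± 5.07 in bone marrow. Fetal liver was the only tissue in which it was well above background, at least 6.70-fold above bone marrow and at least 2.78-fold above adult liver. The cystine and glutamate exchanger light chain Slc7a11 gave 4.25 ± 4.23, 3.21 ± 3.20 and 142 ± 15. It was well above background in bone marrow only, at least 4.09-fold above fetal liver and at least 2.49-fold above adult liver. The difference from fetal liver fell under 4-fold with normexp background correction (log2 difference -0.48), with the mean over probes (-0.03) and with the deposited column (-0.96). Another Slc7a11 probe was at 54.7 in bone marrow and dim in both livers, at least 1.57-fold above fetal liver, and the 2 remaining probes were dim everywhere.

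Slc3a1 and its light chain Slc7a9 did not share an order of tissues. Slc7a9 gave 31.8 ± 5.41 in adult liver, while fetal liver gave 178 ± 18.1 and bone marrow 42.7 ± 6.72, highest in fetal liver. It was 4.30-fold higher in the fetal than in the adult liver, the comparison in which Slc3a1 was 46.1-fold higher in adult liver. Slc7a13, also a partner of Slc3a1 in kidney, was not well above background on any array, at 4.61 ± 4.60, 3.64 ± 3.62 and 5.63 ± 5.61.

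**Figure D3:**
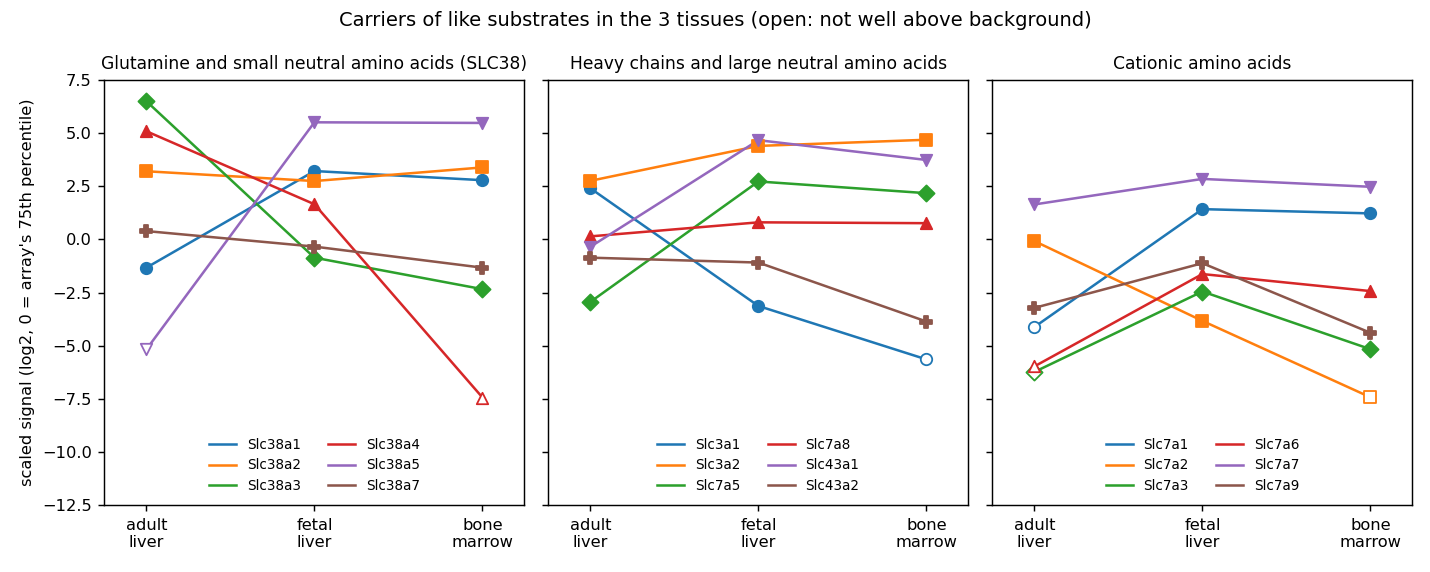
Scaled signal (log2, 0 at the array's 75th percentile) in the 3 tissues for SLC38 carriers, for heavy chains with large neutral amino acid carriers, and for cationic amino acid carriers. Each line is 1 gene and 1 array per tissue, and open symbols were not well above background. Within each panel some lines fall from adult to fetal liver (Slc38a3, Slc3a1, Slc7a2) and others rise (Slc38a5, Slc7a5, Slc7a1).

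Fetal liver and bone marrow, the blood-forming tissues, were compared in turn. Of 47 transporter genes compared, 9 (19.1%) were at least 4-fold higher in fetal liver, beside 9.33% of all genes, and 2 (4.26%) were higher in bone marrow, beside 8.30%. A further 32 were measured within 4-fold, and 4 had a lower bound under 4. The median log2 difference was 0.55, beside 0.26 over all genes. This comparison depends on the scaling. With scaling to the spike-in controls, the median of all genes was -2.11 and 3 transporter genes (6.82% of 44) were higher in fetal liver and 19 (43.2%) in bone marrow, beside 2.20% and 54.2% of all genes. Just inside the threshold lay Slc7a11 (at least 4.09-fold) and just outside it the creatine carrier Slc6a8 (3.47-fold).

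In fetal liver, 3 genes (6.98% of 43, beside 1.88% of all genes) stood at least 4-fold above both other tissues. Of 5 hepatoblast markers, Afp, Igf2, Dlk1 and Gpc3 were also higher in fetal liver than in adult liver, by 1631-fold, 1858-fold, at least 357-fold and at least 233-fold, and higher than in bone marrow by 1496-fold, 348-fold, at least 886-fold and at least 708-fold. The fifth, Ahsg, was 4.19-fold higher in adult liver. The part of hepatoblasts in the differences of these 3 genes was not tested. The proton-driven carrier of glycine, alanine and proline Slc36a2 gave signals of 5.45 ± 4.30, 1050 ± 105 and 109 ± 12.0 in adult liver, fetal liver and bone marrow. It was at least 42.7-fold above adult liver and 22.3-fold above bone marrow, and its second probe was dim on all 3 arrays. Of its neighbours on chromosome 11, Slc36a1 was within 4-fold in each comparison and Slc36a3 was well above background in bone marrow only. The glutamate carrier Slc1a6, known from Purkinje cells, gave 61.7 ± 7.40, 357 ± 35.9 and 24 ± 5.57. Fetal liver was 4.44-fold above adult liver and at least 34.5-fold above bone marrow. Slc7a9, given above, was 9.66-fold higher in fetal liver than in bone marrow. With normexp background correction the differences between fetal and adult liver were 1.39 (log2) for Slc1a6 and 0.95 for Slc7a9, under 4-fold.

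The other genes higher in fetal liver than in bone marrow were Slc1a4, Slc43a2, Slc7a3, Slc7a10, Slc38a4 and Slc3a1. The neutral amino acid exchanger Slc1a4 gave 198 ± 20.6 in adult liver, against 381 ± 38.4 in fetal liver and 50 ± 8.58 in bone marrow. Both livers stood above bone marrow, by 11.9-fold and 17.7-fold, and the second probe gave 13.9-fold and 11.7-fold. The large neutral amino acid carrier Slc43a2 gave 163 ± 16.7, 181 ± 18.4 and 61.8 ± 7.84, so that adult liver was 7.96-fold and fetal liver 6.79-fold above bone marrow. Its second probe, which the array file places at 75387946 to 75388005 on chromosome 11, did not show this, with bone marrow 1.27-fold above adult liver and 1.35-fold above fetal liver. The cationic carrier Slc7a3, known from brain and embryo, gave 3.96 ± 3.80, 70.7 ± 7.68 and 25.1 ± 5.37, or 6.53-fold in favour of fetal liver. With spike-in scaling the differences of Slc1a4, Slc43a2, Slc7a3, Slc7a9 and Slc7a10 were under 4-fold, at 1.82, 0.44, 0.38, 0.95 and 0.42 (log2). For Slc3a1 the difference was at least 4.31-fold and fell under 4-fold in the alternatives that correct background differently or normalize by quantiles, and with spike-in scaling it gave no fold. With normexp background correction the differences of Slc7a3 and Slc7a10 were also under 4-fold, at 1.65 and 1.79 (log2).

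Bone marrow stood at least 4-fold above both livers for 1 gene of 42 (2.38%, beside 5.69% of all genes), the proline carrier Slc6a20a. It gave 64.7 ± 7.49 in adult liver, while fetal liver gave 34.9 ± 4.61 and bone marrow 1150 ± 115. Bone marrow was 5.89-fold above adult liver and 14.2-fold above fetal liver, the first falling under 4-fold (log2 difference -1.84) with normexp background correction. Its near-identical neighbour on chromosome 9, Slc6a20b, was dim on all 3 arrays at 4.46, 3.51 and 7.28, and cross-hybridisation between the copies was not tested. The other gene higher in bone marrow than in fetal liver was Slc7a11.

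Adult liver and bone marrow were compared last. Of 44 transporter genes, 11 (25.0%) stood at least 4-fold higher in adult liver, beside 18.8% of all genes, and 10 (22.7%) in bone marrow, beside 15%. A further 19 were measured within 4-fold, and 4 had a lower bound under 4. The median log2 difference was 0.43, beside 0.09 over all genes. In either direction 33.8% of all genes were 4-fold apart here, beside 26.2% between the livers and 17.6% between fetal liver and bone marrow. With spike-in scaling, which put the median of all genes at -2.70, the split was 7 (15.2% of 46) higher in adult liver and 25 (54.3%) in bone marrow, beside 5.84% and 66.1% of all genes. The 11 higher in adult liver were the 7 described above with Slc1a4, Slc43a2, Slc1a6 and Slc6a8, and the 10 higher in bone marrow were the 8 described above with Slc6a20a and Slc1a3. With spike-in scaling Slc1a4, Slc43a2 and Slc1a6 were under 4-fold, at 0.76, 0.18 and 0.14 (log2).

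Slc6a8, the creatine carrier, gave signals of 267 ± 27.1, 271 ± 27.3 and 181 ± 19.1 in adult liver, fetal liver and bone marrow. Adult liver was 4.45-fold above bone marrow, a direction that turned with spike-in scaling (log2 difference -0.66). The glutamate and aspartate carrier Slc1a3 gave 6.88 ± 4.34, 54.3 ± 6.35 and 239 ± 24.5, highest in bone marrow. It was at least 4.19-fold above adult liver, the value nearest to the threshold on the inside, which fell to -0.68 (log2) with normexp background correction. Its 2 other probes were dim everywhere. Nearest on the outside was Slc3a2 at 3.80-fold, which passed 4-fold with normexp background correction, quantile normalization and spike-in scaling.

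**Figure D4:**
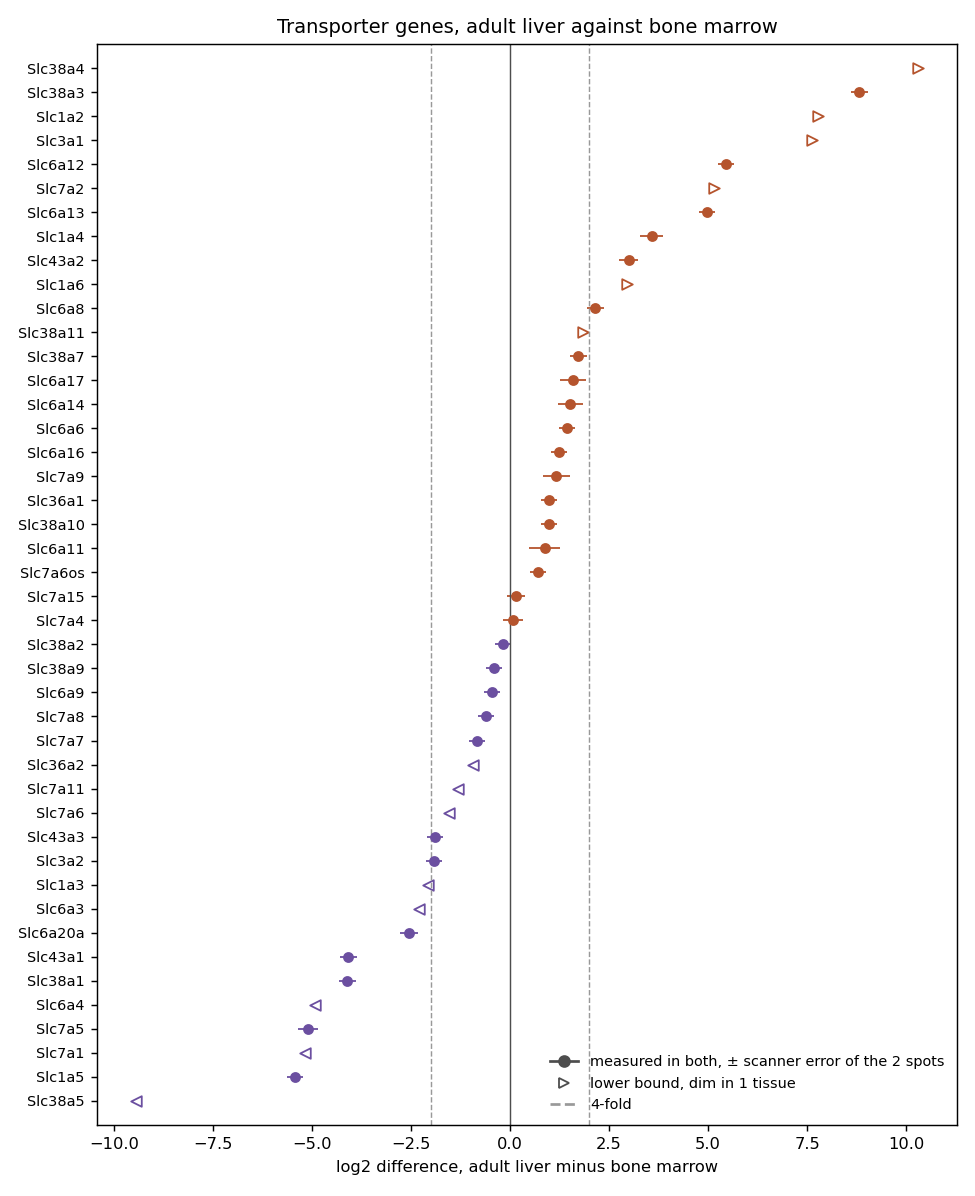
Log2 difference between adult liver and bone marrow for the 44 transporter gene names with a fold. Points carry the scanner error of the 2 spots, triangles are lower bounds, and dashed lines mark 4-fold. The 11 genes right of the right line reach Slc38a4 at 10.31, and the 10 left of the left line reach Slc38a5 at -9.44. With spike-in scaling the split was 7 and 25, beside 5.84% and 66.1% of all genes.

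Of the 30 names well above background everywhere, 17 were measured within 4-fold in all 3 comparisons with the percentile scaling. They include carriers of the lysosome and other inner membranes (Slc36a1, Slc38a7, Slc38a9 and Slc38a10), the light chains Slc7a7 and Slc7a8, the heavy chain Slc3a2 and Slc7a6os. The others are Slc38a2, Slc6a6, Slc6a9, Slc6a11, Slc6a14, Slc6a16, Slc6a17, Slc7a4 and Slc7a15. The share of all genes within 4-fold in this way was not counted. Some of these signals were low. In adult liver, fetal liver and bone marrow Slc6a11 gave 24.2, 19.8 and 40, Slc6a14 39, 18.2 and 41, and Slc6a17 37.7, 21 and 37.7. The second probes of Slc6a11 and Slc6a14 were dim on all 3 arrays. Folds between signals so near background say little about level expression. The count of 17 depends on the scaling. With spike-in scaling, bone marrow stood 4-fold or more above adult liver for 25 of 46 transporter names, beside 66.1% of all genes. The taurine carrier Slc6a6 gave 5820 ± 582 in adult liver, against 2300 ± 230 in fetal liver and 6450 ± 645 in bone marrow. After scaling, adult liver stood highest, 3.29-fold above fetal liver and 2.72-fold above bone marrow, and a second probe put adult liver at least 5.51-fold above fetal liver. Slc6a9, the glycine carrier that supplies heme synthesis in red cell precursors, was picked out after its values were seen. It gave 9790 ± 979, 32600 ± 3260 and 40700 ± 4070, bright on each array and 2.56-fold higher in the fetal than in the adult liver.

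Slc38a2, a system A carrier that lies between Slc38a1 and Slc38a4 on chromosome 15, was also picked out after its values were seen. The probe that stands for it gave 2720 ± 272 in adult liver, while fetal liver gave 2580 ± 259 and bone marrow 9290 ± 929, with adult liver and bone marrow 1.13-fold apart. Its 3 other probes stood 2.13-fold, 5.34-fold and 6.73-fold above bone marrow in adult liver. The 3 neighbours thus differed in pattern, Slc38a1 being low and Slc38a4 high in adult liver.

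Agreement between probes could be checked for part of the genes. Of the 62 names, 32 had 1 probe and 30 had several, at most 5. Among the 20 genes 4-fold apart between fetal and adult liver, 7 had several probes, and every probe was 4-fold apart in the same direction for 2 of them. The counts were 1 of 5 for fetal liver against bone marrow and 3 of 8 for adult liver against bone marrow. No gene had a probe 4-fold apart in the opposite direction. The remaining 4 names, Slc1a1, Slc36a3, Slc36a4 and Slc38a11, were well above background in 1 tissue each and had no difference of 4-fold.

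Genes of related function were read from lists. Of 33 genes that handle the amino acids these carriers move, 29 were compared between the livers, and 19 were at least 4-fold higher in adult and 2 in fetal liver, beside 14.1% and 12.1% of all genes. Their median log2 difference was -3.70, beside 0.06 over all genes. Glutamine synthetase Glul gave signals of 46800, 8210 and 12600 in adult liver, fetal liver and bone marrow, and the liver glutaminase Gls2 gave 42400, 397 and 438. Adult liver was thus above fetal liver by 7.42-fold for Glul and 139-fold for Gls2. Arginase Arg1 gave 10300, 26.1 and 5.21, or 514-fold between the livers. Against bone marrow, 22 of 31 were higher in adult liver and 4 in bone marrow, beside 18.8% and 15% of all genes. The largest folds were those of cysteine dioxygenase Cdo1 (at least 4487-fold), Bhmt (at least 2584-fold), Baat (at least 1680-fold) and Otc (at least 1375-fold). Between fetal liver and bone marrow, 6 of 30 were higher in fetal liver and 2 in bone marrow, beside 9.33% and 8.30% of all genes. The list shares Ass1 and Tat with the hepatocyte markers.

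The amino acid response is run by the transcription factor ATF4, which induces transporter and synthesis genes when amino acids are short. Of 20 genes of this response, 6 (30.0%) were at least 4-fold higher in fetal and 3 (15%) in adult liver, beside 12.1% and 14.1% of all genes. Atf4 gave 1170 in adult liver, against 2280 in fetal liver and 5350 in bone marrow, or 1.50-fold, 1.01-fold and 1.52-fold between tissues after scaling. Asparagine synthetase Asns gave 160, 39900 and 35300, or 192-fold between the livers and 73.1-fold between bone marrow and adult liver. The serine synthesis genes Phgdh and Psat1 were 366-fold and at least 335-fold higher in the fetal than in the adult liver. The 3 higher in adult than in fetal liver were Atf5, Cebpb and alanine aminotransferase Gpt2, the last by 20.5-fold. Gpt2 was also 364-fold above bone marrow in adult liver. Between fetal liver and bone marrow the counts were 4 and 2 of 20, beside 9.33% and 8.30% of all genes. Between adult liver and bone marrow they were 2 and 7 of 20, beside 18.8% and 15% of all genes.

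Of 27 genes through which mTORC1 senses amino acids, 25 were compared between the livers. Fetal liver and adult liver were each compared with bone marrow for 26. None was 4-fold apart in any comparison. Of all genes, 26.2% were 4-fold apart between the livers, 17.6% between fetal liver and bone marrow and 33.8% between adult liver and bone marrow. The median log2 differences of the listed genes were -0.17, -0.01 and 0.23 in the same order. Of 23 amino acid and peptide transporters outside the naming rule, 16 were compared between the livers. At least 4-fold higher were 1 (6.25%) in fetal and 4 (25.0%) in adult liver, beside 12.1% and 14.1% of all genes. Between fetal liver and bone marrow the counts were 2 and 2 of 17, beside 9.33% and 8.30% of all genes. Between adult liver and bone marrow they were 5 and 3 of 17, beside 18.8% and 15% of all genes. The largest folds were those of the mitochondrial ornithine carrier Slc25a15 (at least 47.1-fold), the aspartate and glutamate carrier Slc25a13 (22.5-fold) and the glutamate carrier Slc25a22 (21.8-fold), all towards adult liver over bone marrow, and the vesicular GABA and glycine carrier Slc32a1 (at least 12.3-fold towards bone marrow over fetal liver).

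**Figure D5:**
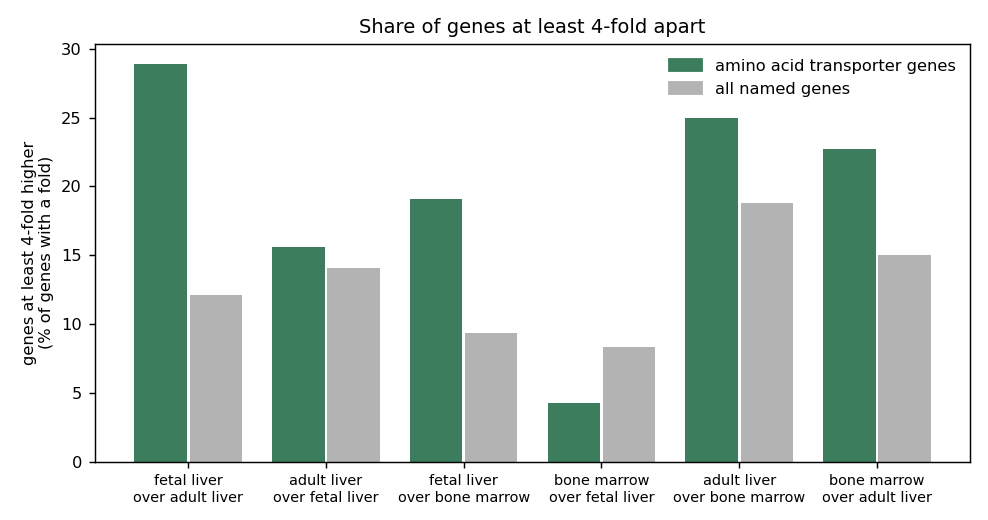
Percent of genes with a fold that were at least 4-fold higher in the first tissue named, for amino acid transporter genes (green, out of 45, 47 and 44) and for all named genes (grey), by comparison and direction on a linear axis from 0. The green bar is 28.9% against 12.1% for fetal over adult liver and 4.26% against 8.30% for bone marrow over fetal liver. With spike-in scaling the splits against bone marrow turn to 3 and 19 and to 7 and 25, and all genes turn too, to 2.20% and 54.2% and to 5.84% and 66.1%.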

How the data were processed

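Total RNA of 3 tissues was read on 3 arrays on 1 slide in 1 scan, 1 array per tissue, with 45018 spots, 43379 of them for genes. Agilent Feature Extraction 10.5.1.1 gave each spot's processed intensity, background-subtracted and spatially detrended on a linear scale, with nothing normalized between arrays, per the file headers and, for the version, the submitters' processing notes. The authors also deposited a table with raw, normalized and fold columns. On each array its raw intensity column matched, to within 1%, the error of the processed signal for 45018 of 45018 spots, and its normalized ratio column, deposited on a linear scale, was made from it, so that table served only as an alternative. Of gene spots, 52.6%, 58.7% and 58.8% were well above background in adult liver, fetal liver and bone marrow, and 0 were saturated. The number of arrays limits the precision.

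Control spots and outlier-flagged spots (75, 71 and 80) were left out, log2 signals were centred on each array's 75th percentile, and a gene was represented by its probe well above background on most arrays, ties going to the brightest (Python 3.11.15, numpy 2.4.6, pandas 2.3.3, matplotlib 3.10.9, R 4.3.3, limma 3.58.1). A lower bound was formed against the higher of the dim probe's own signal and the dimmest gene spot well above background there (18.9, 15.0 and 23.7). Probes were named through the RefSeq accession (24844), a current symbol (6045) or an older symbol (1796), and 8489 stayed unnamed. For all 62 transporter names the first probe was checked against its accession, or its symbol where the accession was unknown, and matched. A match by symbol was fixed in advance, since the symbol is the name itself. Left out were 4 probes that only their accession ties to such genes. Coordinates of probes are those of the array file (mm9), and in which exon a probe lies was not analysed. The members and lists were chosen with earlier results of these data known. Genes named with values were those 4-fold apart in a comparison, the heavy and light chains, the genes nearest to the threshold, and up to 4 per related list by fold with Glul, Gls2, Arg1, Atf4 and Asns; some genes are not reported here. The steps were tested on simulated data. The alternatives were normexp (offset 50), other scalings, the mean over probes, a filter on dim probes, outlier flags kept, the deposited normalized column and a 2-fold threshold. A planned comparison of protein sequences was not run. Markers of macrophages summed to 94.6, 54.1 and 44.0 in adult liver, fetal liver and bone marrow, of T and NK cells to 2.99, 1.68 and 40.0, of endothelium to 43.8, 15.7 and 2.92, of stroma to 92.0, 79.0 and 55.9, of bile duct to 12.8, 2.24 and 14.1, of muscle to 0.310, 1.73 and 3.96, of bone to 1.80, 0.751 and 1.78, of hepatoblasts to 810, 926 and 0.892 (in adult liver nearly all from Ahsg), and of pancreas, gut, kidney and adrenal to 102, 5.24 and 2.55, of which Fabp2, also expressed in liver, was the brightest in adult liver.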

Additional observations from a re-analysis of the deposited data

How the results depend on the processing

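All 7 genes high in adult liver kept both 4-fold differences under every alternative that gave a value, and so did 6 of the 8 low there, Slc6a3 and Slc6a4 being the exceptions. Keeping the outlier flags could not change these folds, since 0 transporter spots were flagged on each array. The filter on dim probes only drops genes and leaves the other folds as they were. The deposited column was made from the error of the processed signal. That error was a median 10.1% of the signal of spots well above background, so folds between bright signals could hardly change. Taking the percentile over probes well above background on all arrays shifts every fold of a comparison alike. It left all 80 folds counted below on their side of 4-fold. Scaling to spike-ins moved the medians of all genes to 0.51 between the livers, -2.11 between fetal liver and bone marrow and -2.70 between adult liver and bone marrow. Those of the transporter genes became 0.39, -1.92 and -2.19, with splits of 3 (fetal liver) to 19 (bone marrow) and of 7 (adult liver) to 25 (bone marrow), beside 2.20% to 54.2% and 5.84% to 66.1% of all genes. The difference of Slc6a8 between adult liver and bone marrow turned to -0.66. Relative to all genes the transporter medians were -0.12, 0.19 and 0.51. With normexp, the mean over probes and the deposited column, 9, 12 and 10 genes were higher in fetal and 7, 8 and 7 in adult liver. With each of these, 1 gene was higher in bone marrow than in fetal liver, beside 5.87%, 7.46% and 7.10% of all genes. The median between adult liver and bone marrow was 0.66, 0.92 and 0.70. Only genes well above background everywhere left 6 and 3 higher in fetal and adult liver (median -0.32), 3 and 1 in fetal liver and bone marrow, and 6 and 5 in adult liver and bone marrow (median 0.79). These were out of 30, beside 10.2% and 11.5%, 6.85% and 6.38%, and 15.4% and 12.2% of all genes kept. At 2-fold, 20 and 13 genes were higher in fetal and adult liver, 14 and 3 in fetal liver and bone marrow, and 18 and 14 in adult liver and bone marrow, beside 27.0% and 26.8%, 25.1% and 17%, and 32.6% and 27.4% of all genes. The filter tests fewer genes, and for the other changes the cause was not tested. The 28 genes 4-fold apart in a comparison had 80 folds, some of them under 4-fold from the start. Of these folds, normexp took 13 under 4-fold, the deposited column 10, spike-ins 8, the mean over probes 4 and quantile normalization 1. Spike-ins also turned the direction of 1 and brought 10 to 4-fold or more. The filter on dim probes gave no value for 41, the mean over probes for 5 and spike-ins for 2. No paired analysis was possible because each tissue has 1 array. For the same reason no array could be left out. Dim signals limit the folds written as bounds.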
